A study of Mus musculus with 50 samples.

Results

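The 4 mesenteric lymph node tumours titled 1199, 1200, 1201 and 1293 were compared with the 40 tumours titled 1501 to 1628, out of 44 tumours with a column in the deposited variant table. The members were taken by title alone. The titles carry no date, so the tumours are called low-titled and high-titled here. Whether the low-titled mice were born or sampled earlier is not known from the labels, and exome calls do not show the cell type. A tumour titled 1292 belongs to the same range. This tumour and the 5 kidneys of wild-type Balb/c mice were not analysed here. All 44 tumours carry the same labels: they are from the mesenteric lymph node, the genotype is IL6Myc and the cell type is given as Malignant Plasma Cell. Each tumour is from a mouse of its own. The labels name no treatment, age, sex or strain of the IL6Myc mice and no promoter for the transgenes. Exome DNA had been captured with a 50 Mb mouse exon design, and the table lists 25624 variants with a single alternate allele on the mm10 build. A cell holds a percentage or a dot in place of a call. The percentage is read here as the percent of reads with the alternate base (the read share). No header says so, and this meaning was taken from the values. Read depth is unknown, so a dot can be a reference genotype or a site with too few reads, and no interval can be set around a single share.

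Multiple myeloma is a cancer of plasma cells, the antibody-secreting end stage of B cells. Interleukin 6 keeps plasma cells alive through JAK and STAT3, and Myc drives their growth, and the IL6Myc mouse is named for both. In laboratory mice, variants inherited from another strain lie in long linked runs, and an inherited variant on a single copy of a chromosome is expected near a read share of 50%. A variant acquired by part of a tumour has a lower share. Without a matched normal tissue in the table, the origins of single calls were not tested.

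A few of the variants, chosen after their values were seen, are shown by their letters as examples of calls seen in low-titled tumours alone. The single variant called in all 4 low-titled tumours and in no high-titled one is a deletion of 18 bases between genes at chr6:89193227-89193245 (mm10). Its deposited letters follow, with the base before the change in lower case and the deleted bases in capitals. Beside it stand a 21-base insertion in Taf15, which encodes an RNA-binding protein with glycine-rich repeats, and a 19-base deletion in Jarid2, a partner of the Polycomb repressive complex 2.
chr6 deletion: aGCTGGGGCAGCTGGGGCC
Taf15 insertion: tGGTGGCTACGGAGGAGACCGA
Jarid2 deletion: gGGCCTGCTGCCAGTGGCCT
The chromosome 6 deletion had read shares of 61.5% in tumour 1199, 47.8% in 1200, 36.4% in 1201 and 50% in 1293. The Taf15 insertion (chr11:83505054-83505054) occurred in 1199 at 62.9% and in 1200 at 47.1%, and the Jarid2 deletion (chr13:44902520-44902539) in 1200 alone at 53.3%.

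Of the single-base variants, 376 pairs of variant and RefSeq promoter window (250 bases before to 50 after a gene's start, GRCm38.p6) could be compared, and in all 376 the deposited reference base equalled the RefSeq base. Among the variants seen on a single side as defined below, 38 single-base variants lay in such windows, 24 of the low-titled side and 14 of the high-titled side. The runs below give the gene's strand, 5′ to 3′, for 4 low-titled variants and 1 high-titled variant that lie before the start on which the promoter window is set, with the variant base in capitals and in its reference form. Positions in each token are counted from 1 at the 5′ end of the printed run.
Ccl1: actcccacctcttcTccatggtctgggaa
Ccl3: ccctcctcagccccGgattccatttcctc
Ggnbp2: gtcgggacacgagcGaggcggccgcggtc
Acsf2: taattaccctcgccTcgttcactttcaaa
Trp53rkb: gagcggtgttcatgGcggaagaggccgga
Ccl1 and Ccl3 encode chemokines. The Ccl1 run is chr11:82179860-82179888 on the minus strand, and T15C occurred in 1199 at 63.6% and in 1200 at 30.8%. The Ccl3 run is chr11:83649406-83649434 on the minus strand, and G15A occurred in 1200 at 50% and in 1201 at 23.8%. The Ggnbp2 run is chr11:84870875-84870903 on the minus strand, and G15T occurred in 1199 at 81.8%, in 1200 at 58.3% and in 1201 at 30%. The Acsf2 run is chr11:94601808-94601836 on the minus strand, and T15C occurred in 1199 at 47.4% and in 1200 at 61.1%. The RefSeq span of Acsf2 (chr11:94557102-94602139) reaches past this run, so the run lies inside the gene as annotated from its farthest start. The Trp53rkb run is chr2:166793730-166793758 on the plus strand, and G15A occurred in 15 high-titled tumours at a median share of 44% and in no low-titled tumour. The RefSeq span of Trp53rkb likewise starts before its run. All 4 low-titled runs lie on the distal part of chromosome 11 that is described next. No variant of either side fell in a RefSeq miRNA hairpin.

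Tumours 1199, 1200 and 1201 carried blocks of chromosome 8 and 11 variants that were called in no high-titled tumour. They lacked a block of chromosome 1 that all 40 high-titled tumours carried. Tumour 1293 had neither block of chromosomes 8 and 11 and did carry most of the chromosome 1 block. Carriers were compared variant by variant with a two-sided Fisher's exact test on 4 against 40 tumours, with Benjamini-Hochberg adjustment over all 25624 variants. The test called 1166 variants (4.55%) at an adjusted p under 0.05, of which 574 (2.24%) were more frequent in low-titled and 592 (2.31%) in high-titled tumours. Tumour 1199 carried 570 of the 574, 1200 carried 565, 1201 carried 570 and 1293 carried 25. Of the 592, the tumours 1199, 1200 and 1201 carried 0 each and tumour 1293 carried 544 (91.9%), beside 96.8 to 100% (median 99.2%) in the high-titled tumours. These variants were called for their many high-titled and few low-titled carriers, so the selection itself largely sets these numbers. They describe the called variants and give no further test. Among the called variants tumour 1293 differed from the other 3 low-titled tumours. On the low-titled side a variant needed at least 3 low-titled carriers to pass, since 2 against 0 gave an adjusted p of 0.0729 (Fisher's exact test). Variants in no high-titled tumour also divided the 3: 667 were called in 1199 and 1200 alone, and 542 in 1199, 1200 and 1201.

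Each called variant rests on a few carrier patterns. The pattern of 3 low-titled and 0 high-titled carriers held 557 variants (Fisher's exact p = 0.000302, adjusted p = 0.0074), and the pattern of 1 and 40 carriers held 455 with the same p. The pattern of 1 and 39 carriers held 89 (adjusted p = 0.0262). Linked variants repeat a pattern and are not independent. A lone variant with the strongest pattern (4 against 0 carriers, p = 7.37e-06) would have had an adjusted p of 0.189, and a Bonferroni adjustment called 0 variants in either direction, with 2942 at an unadjusted p under 0.05. Without tumour 1199, and likewise without tumour 1200, 0 variants passed, although 1588 and 1729 had an unadjusted p under 0.05. Without tumour 1201 the number more frequent in low-titled tumours became 1263, and without tumour 1293 it became 1425.

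The called variants of the high-titled side lay almost wholly on chromosome 1, which held 579 of the 592 between positions 82729275 and 140163052. Tumour 1293 carried 535 of these 579. The called variants of the low-titled side lay on chromosome 11 (410), chromosome 8 (112), chromosome 2 (16) and others with at most 5 each. Apart from the chromosome 6 deletion, the extremes were the 6 variants called in all 40 high-titled and no low-titled tumour. They include a missense variant of Mff, the mitochondrial fission factor (p.Ile276Met, read shares 25 to 63%, median 45.6%), intronic variants of Rbbp5, Pik3c2b and Nomo1, and a synonymous variant of the histone demethylase gene Kdm5b.

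In overlap of all calls, the closest pair among the 4, 1199 and 1200, shared 2878 of the 8090 variants called in either (35.6%). Tumours 1199 and 1201 shared 23.8% and 1200 and 1201 shared 12.8%. Tumour 1293 shared 4.35 to 5.88% with the other three. It shared most with the high-titled 1589, at 36.75%, above any overlap within the low-titled group. The nearest high-titled tumours of the others were 1505 for 1199 (25.2%) and 1200 (19.8%) and 1562 for 1201 (26.05%). These percentages are descriptions, since all are taken over the same table and grow with the number of calls. On chromosome 1, 952 variants were called in at least 20 high-titled tumours. Tumour 1293 carried 809 of them, just under the 813 to 923 of the high-titled tumours, while 1199 carried 10, 1200 carried 52 and 1201 carried 45.

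Variants seen on a single side were then joined into intervals. A low-side variant had calls in at least 2 low-titled and no high-titled tumours (1405 variants), and a high-side variant in at least 10 high-titled and no low-titled tumours (1000 variants). Neighbours at gaps of at most 2 Mb were joined, and runs of at least 10 variants were kept. This gave 6 low-side intervals on 3 chromosomes with 1261 variants over 19.8 Mb and 20 high-side intervals on 7 chromosomes with 838 variants over 52.5 Mb. The contrast itself delimits them, so they carry no test. Without tumour 1199 the low-side intervals numbered 2, and without tumour 1200 they numbered 3. The heat map of intervals by tumour shows which tumours carry each.

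**Figure D1:**
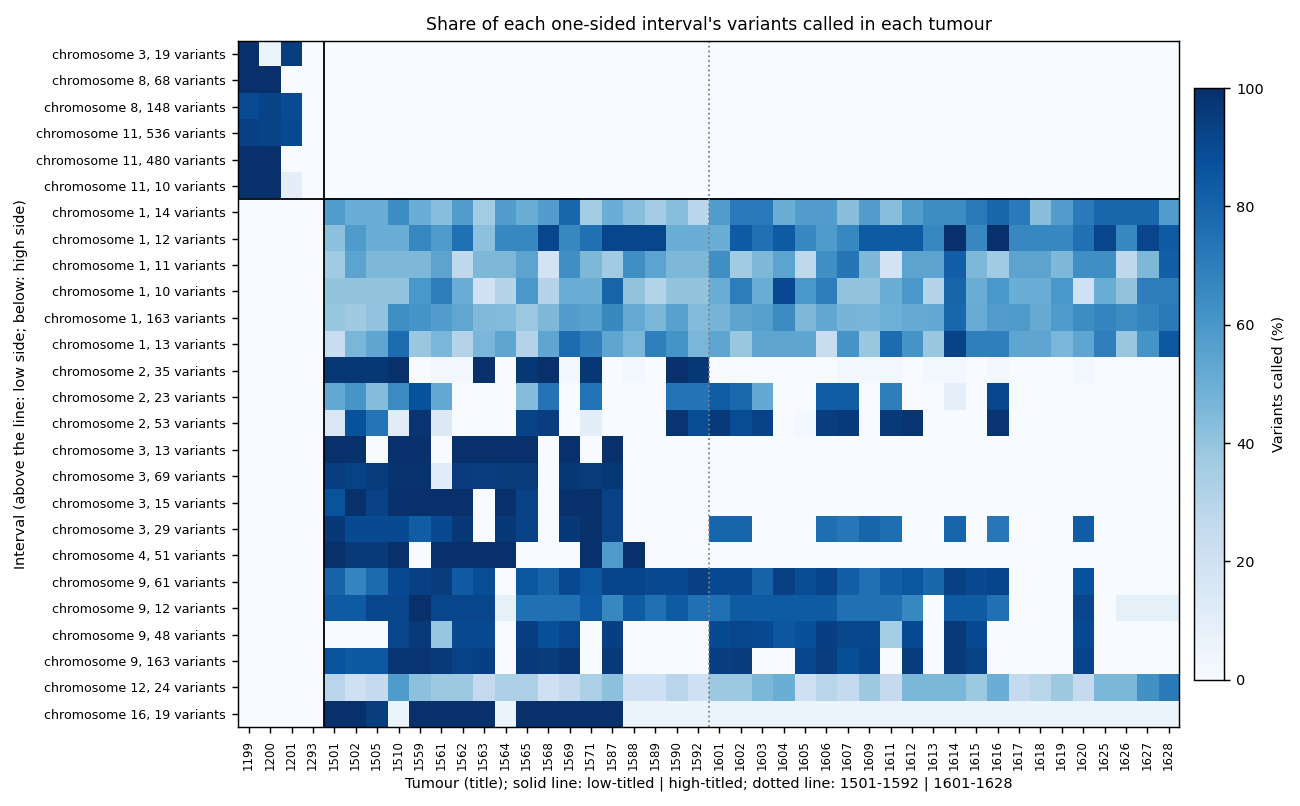
Percent of each interval's variants (rows, with chromosome and number of variants) called in each of the 44 tumours (columns, by title), from white at 0% to dark blue at 100%. The 6 low-side intervals are dark only in some of 1199, 1200 and 1201, and tumour 1293 is white in them. The chromosome 3 intervals of 13, 69 and 15 variants and that of chromosome 4 are white in tumours titled 1601 to 1628. They are dark in only 10 to 12 of the 18 tumours titled 1501 to 1592.

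The largest low-side interval, chr11:80245880-90661718, held 536 variants. Tumour 1199 carried 501 of them, 1200 carried 496, 1201 carried 481 and 1293 carried 2. A second interval, chr8:123124172-125768451, had 148 variants, of which 1199, 1200 and 1201 carried 132, 137 and 132 and 1293 carried 0. Variants that passed the carrier test numbered 408 in the first, 105 in the second and 1 in chr11:100383626-100964120 (10 variants). None of the other 3 intervals held any, since 2 low-titled carriers against 0 give an adjusted p of 0.0729. Tumours 1199 and 1200 alone shared chr8:27086153-28761877 (68 variants, 68 in each) and chr11:93578797-97101388 (480 variants, 480 in each). Tumour 1199 shared chr3:82118977-83071928 (19 variants) with 1201, which carried 18, and 1200 had 1 of them. Beyond the 2 variants above, 1293 had none of the low-side variants in any interval.

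Read shares inside the intervals were near 50% in most carriers. In the distal chromosome 8 interval the medians were 48.1% in 1199, 48.9% in 1200 and 54.55% in 1201. In the proximal chromosome 8 interval they were 48.5% in 1199 and 50% in 1200. In the largest chromosome 11 interval they were 47.5% in 1199, 47.5% in 1200 and 29.7% in 1201.

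Tumour 1201 stood apart on chromosome 11. Of the interval's single-base variants, 344 were called in 1199, 1200 and 1201 alike. Over these same 344 variants 1199 had a median share of 47.5% (quartiles 41.7 and 53.15%), 1200 of 46.7% (41.9 and 52.4%) and 1201 of 29.4% (25 and 34.4%). Tumour 1201 had the lowest share of the 3 at 309 of the 344 variants (89.8%), and 313 lay under 40% in it, beside 56 in 1199 and 66 in 1200. The low share covered other parts of the chromosome in 1201 too. Between 4 and 60 Mb, 226 single-base variants had a median of 30.3%. Of variants that 1201 shared with other tumours, chromosome 7 had a median of 43.1% over 104 variants beside 49.1% in the other carriers, and chromosome 3 had 48.3% over 944 beside 48.8%. Without depth, no copy number can be set beside these shares.

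**Figure D2:**
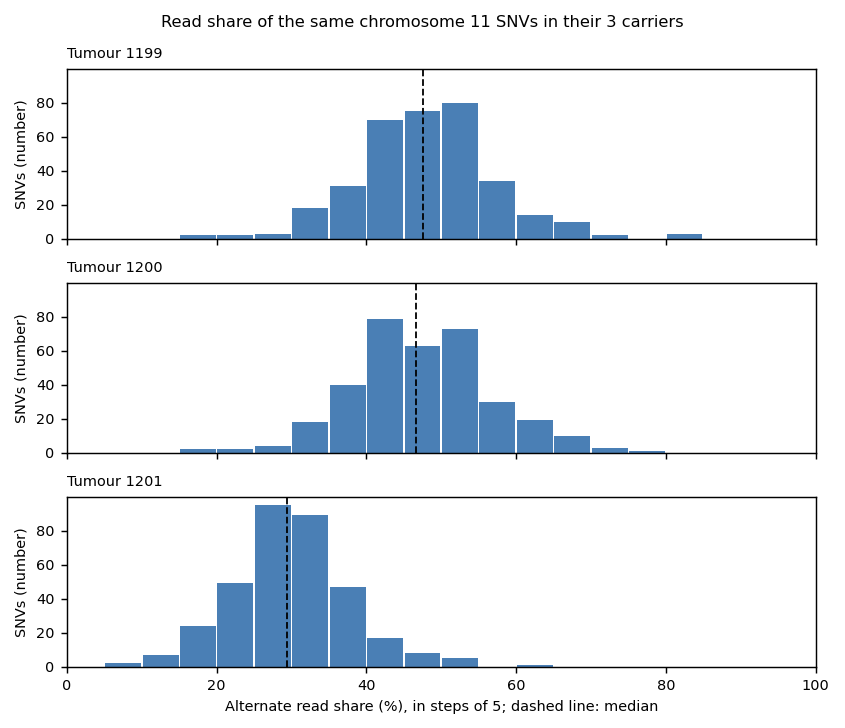
Number of single-base variants (vertical axis) by alternate read share in percent (horizontal axis, steps of 5) for the same 344 chromosome 11 variants in tumours 1199, 1200 and 1201, with the median as a dashed line. The bulk of 1201 lies around its median of 29.4%, to the left of 1199 (47.5%) and 1200 (46.7%).

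The low-side intervals held 97 protein-altering variants (missense, stop, start, frameshift, in-frame or essential splice site) in 71 genes, 17 of them with several variants. In the distal chromosome 8 interval, Map10, a microtubule-associated protein, had the most, with 5 missense variants. Its p.Ser745Ala occurred in 1199 at 68.25%, in 1200 at 46.8% and in 1201 at 55.7%, while p.Leu160Met and p.Arg570Ser were each missing from a single tumour of the 3. Fanca, a core subunit of the Fanconi anaemia complex that repairs DNA crosslinks, had p.Leu43Val in 1199 (54.55%), 1200 (55.9%) and 1201 (52.8%). Its second variant, p.Ala901Val, occurred in 1199 (63.6%) and 1201 (50%) but not in 1200. Of the genes in the 10 prepared lists, Fanca alone had a low-side variant in an interval.

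Other genes of that interval were Urb2, a ribosome biogenesis factor (p.Leu697Val and p.Thr748Ala), Ttc13 (p.Arg676Gln and p.Leu416Met), Cpne7, a copine (p.Arg126Gly), and the dipeptidase gene Dpep1 (p.His190Gln). All 6 of these variants were called in the 3 tumours, at shares from 33.3% (Cpne7 in 1200) to 60% (Dpep1 in 1200). Chosen after their values were seen, Mc1r, the melanocortin receptor that sets coat colour, had p.Ala101Val in 1199 (48.3%), 1200 (42.3%) and 1201 (59.1%). Sprtn, a protease that removes proteins crosslinked to DNA, had p.Asp413Asn in 1199 (48.2%), 1200 (49.2%) and 1201 (58.3%).

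The largest chromosome 11 interval held 35 protein-altering variants. Slfn9, a member of the Schlafen family, had 4 missense variants in 1199, 1200 and 1201. Of these, p.Cys404Tyr and p.Cys404Arg sit in the same codon and had identical shares in each carrier (18.97%, 16.1% and 9.82%). Schlafen genes are similar to each other, so their reads can be exchanged and these values are uncertain. Identical shares were also seen for p.Thr33Ala and p.Thr33Met of 1700125H20Rik (40.9%, 30.8% and 29.4%). Prr11, Synrg and Usp32, a ubiquitin-specific protease, each had 2 missense variants in the 3 tumours. Single missense variants in all 3 were found in 1700020L24Rik (p.Glu58Asp), Ankfn1, the diacylglycerol kinase gene Dgke (p.Gly167Ser) and the dual-specificity phosphatase gene Dusp14 (p.Trp45Arg, at 64.3, 36.4 and 38.1% in 1199, 1200 and 1201). Chosen after their values were seen, Ppm1d, a phosphatase that shuts down p53 signalling, had p.Gln590His at 41.5% in 1199, 46.3% in 1200 and 20.45% in 1201. The T-box genes Tbx2 (p.Gly412Asp) and Tbx4 (p.Ala409Thr) were altered in the same 3 tumours. In 1201 the share of Tbx4 (20%) lay below those in 1199 (38.1%) and 1200 (51.2%), and that of Tbx2 (41.2%) lay close to that in 1200 (42.1%).

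The intervals of a pair of tumours held the truncating variants. Map9, another microtubule-associated protein gene, on chromosome 3, had a stop, p.Gln179Ter, in 1199 (39.4%) and 1201 (49.2%). The next base of the same codon carries p.Gln179Arg at identical shares in both tumours, and their presence on the same reads remained untested. Hils1, a spermatid-specific linker histone gene, on chromosome 11, had frameshifts of 4 and 5 bases lying 11 bases apart in 1199 (40 and 42.1%) and 1200 (41.7 and 43.2%), for a net loss of 9 bases. The interval that 1199 and 1200 alone shared there also held 4 missense variants of Eme1, a subunit of a structure-specific DNA endonuclease (chosen after its values were seen).

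Over all 458 protein-altering variants called in low-titled tumours alone, 11 pairs lay within 20 bases of each other with the same carriers, and 9 of the 11 had the same share in every carrier. Of the 24 truncating variants among the 458, 8 had such a neighbour. These pairs were looked for after the variants had been seen. If a pair lies on the same reads, the annotation of a single variant does not give the protein change of the pair.

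The 20 high-side intervals differed in what the low-titled tumours held inside them. In 10 of them, with 502 variants and 40 protein-altering ones, each low-titled tumour had at most 5 calls of any kind. These lie on chromosomes 2, 3, 4, 9 and 16. In the other 10, at least 1 low-titled tumour had other calls in the same interval, so only the listed variants are on a single side. Tumour 1293 had over 5 calls in 7 of the 20, the 6 chromosome 1 intervals among them. In chr1:131662182-136941168 it had 565 calls, beside 583 to 719 in the high-titled tumours, and 1199, 1200 and 1201 had 9, 55 and 47. In chr2:152802820-158857118, 1199 and 1200 had 523 and 543 calls, beside 0 to 602 in the high-titled tumours. In chr3:36449492-37431804 tumour 1201 had 232 calls.

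Chromosome 9 held a block missing from all 4. Of 234 chromosome 9 variants called in at least 20 high-titled tumours, tumours 1199, 1200, 1201 and 1293 carried 5, 8, 8 and 3, and the high-titled tumours carried 8 to 228 (median 191.5). Here too the filter by itself raises the high-titled counts. The ranges met at the low end: 8 high-titled tumours lacked chr9:102194853-103223045 (61 variants) altogether, and 18 lacked chr9:122716809-124480539 (163 variants). For a variant in 32 high-titled and 0 low-titled tumours, Fisher's exact test gave p = 0.00365 and an adjusted p of 0.0722, and for 22 against 0 these were 0.108 and 0.399. No chromosome 9 variant of these intervals therefore passed the test. Both title ranges of the high-titled tumours held carriers: at least 50% of the first interval's variants were called in 17 of the 18 tumours titled 1501 to 1592 and in 15 of the 22 titled 1601 to 1628. By contrast chr4:11051280-13881025 (51 variants) had such carriers in 11 of the 18 and 0 of the 22, and chr16:90719890-91114144 (19 variants) in 12 of the 18 and 0 of the 22.

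The high-side intervals held 54 protein-altering variants in 39 genes. On chromosome 9 the last interval holds chemokine receptor genes. Ccr1l1 (p.Thr324Ser, p.Ile323Val), Ccr3 (p.Met57Ile, p.Thr73Ala) and Ccr2 (p.Val232Ile) were altered in 22 high-titled tumours, at median shares of 48.98 to 50.55%. None of these variants occurred in a low-titled tumour, but 1199 had another Ccr1l1 call at the same position, p.Thr324Pro, at 4.76%. Ccr2 guides monocytes out of bone marrow, and Ccr3 serves eosinophils. Beside them, Fyco1, an adaptor for autophagosome transport, had 4 missense variants in 21 or 22 tumours. Kif15 (a mitotic kinesin), Lars2 (the mitochondrial leucyl-tRNA synthetase) and Zkscan7 (a zinc finger gene) had 2 each.

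In the first chromosome 9 interval, Cep63 (p.Gln251His, a centrosome protein) and Trf (p.Val254Leu, the iron carrier transferrin) were altered in 32 high-titled tumours and Amotl2 (p.Ser684Asn) in 30. Parp3 (p.Ala289Val), a poly-ADP-ribosyl transferase that responds to DNA breaks, lies in the next interval, chr9:106473811-107687119 (12 variants), and had its variant in 31. On chromosome 1, Ptprv p.Pro1125Arg occurred in 37 high-titled and 0 low-titled tumours (Fisher's exact p = 0.000258, adjusted p = 0.0074), and Zc3h11a p.Pro695Ser, in a zinc finger protein for mRNA export, in 36 and 0 (p = 0.000516, adjusted p = 0.0125). Ptprv had other missense variants in 1293, so the gene was not unaltered on the low-titled side. Its p.Gly1644Ser was called in 1293 (45%) and in all 40 high-titled tumours. Beyond p.Pro1125Arg and p.Pro695Ser, no protein-altering variant of the high-side intervals passed. The sole truncating variant, a frameshift of Nbea (p.Ser1403Leufs*3), a scaffold gene of membrane traffic, occurred in 12 high-titled tumours at a median share of 50.35%.

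Counted by gene, 69 of 1719 genes with a protein-altering call (4.01%) differed in carriers at an adjusted p under 0.05 (two-sided Fisher's exact test, Benjamini-Hochberg over all 1719), and 175 had an unadjusted p under 0.05. Of these, 38 (2.21%) were altered more often in low-titled and 31 (1.8%) in high-titled tumours. Of the 38, 23 lie on chromosome 11, 11 on chromosome 8 and 3 on chromosome 2, and 34 were altered in 1199, 1200 and 1201 but not in 1293. Of the 31, 29 lie on chromosome 1 and 29 were altered in 1293. The 2 altered in no low-titled tumour were Orc3, a subunit of the origin recognition complex, on chromosome 4 (p.Met228Ile, 37 high-titled tumours, adjusted p = 0.00837) and Zc3h11a (36, adjusted p = 0.0141). Rab3gap2 p.Ala1013Val occurred in all 4 low-titled tumours, at 50, 77.9, 39.1 and 47.3% in 1199, 1200, 1201 and 1293, and 5 high-titled ones had an altered gene (adjusted p = 0.0249). Genes in this paragraph from outside the naming rule were chosen after their values were seen. Without 1199, without 1200 and without 1201, 0 genes passed in either direction, with 95, 101 and 159 at an unadjusted p under 0.05. Without 1293, 87 genes were more often altered in low-titled tumours. Against the 18 tumours titled 1501 to 1592 alone 0 genes passed, with 157 at an unadjusted p under 0.05.

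A few gene-level calls, singled out after their values were seen, joined different variants or carriers. Chrna6, a nicotinic receptor subunit gene, had been altered in 1199 and 1200 by p.Ser389Pro (40.4 and 40.5%), in 1200 also by p.Ser389Thr (5.41%), and in 1293 by p.Ser426Leu (38.2%). Etl4 had been altered in 1199 and 1293 by p.Val1398Met (48.6 and 46.4%) and in 1200 by 4 other missense variants. The olfactory receptor gene Olfr1036 carried the same variant, p.Thr5Ile, in 1199 (47.4%), 1201 (50.9%) and 1293 (54.4%), and is a rare call shared between 1293 and the others.

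No gene had alterations in all 4 low-titled tumours and in no other, while 300 genes were altered in low-titled tumours alone, 81 of them in at least 2 and 34 in 3. The 10 gene lists are small, so their counts are set beside those over all genes. Over all genes with a protein-altering call, low-titled tumours had altered 692 of 1719, and 69 (4.01%) passed the carrier test. In the lists, the members altered in any tumour are the like denominator. Of 10 such p53 and DNA repair genes (34 in the list), 4 were altered in a low-titled tumour and 2 in low-titled tumours alone, and 1 (Fanca) passed. Of 20 apoptosis genes, 1 had an alteration and passed (Serpinb2, in 1293 and all 40 high-titled tumours). In 7 other lists no gene passed. Low-titled tumours had altered 6 of 10 myeloma genes, 3 of 8 targets of the antibody-mutating enzyme AID, 2 of 5 plasma and B cell identity genes and 2 of 6 chromatin regulators. They had altered 2 of 4 NF-kB genes, 2 of 2 Myc network genes and 0 of 3 IL6, JAK and STAT genes. Lrp1b, a very long receptor gene of the myeloma list, had p.Cys1157Tyr in 1199 (48.65%), 1200 (53.7%) and 1201 (34.6%) and in no high-titled tumour (variant adjusted p = 0.0074). As a gene it did not pass (3 low-titled and 4 high-titled tumours, adjusted p = 0.123).

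Private calls, those found in 1 of the 44 tumours, numbered 460 in tumour 1199, 1703 in 1200, 457 in 1201 and 912 in 1293. The high-titled tumours had 106 to 584 (median 203.5), so 1200 and 1293 lay above all of them and the other two within their range. The means were 883.0 ± 587 (SD, n = 4) and 229 ± 101 (SD, n = 40), a difference of 653.7 calls (two-sided exact permutation test over 135751 splits, p = 5.16e-05, adjusted p = 0.000327 over 19 per-tumour values). Without tumour 1200 the difference fell to 380.3 calls. A call is private only with respect to the 44 columns, so the number also depends on how many related mice the table holds, and such relatedness is not given.

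The excess lay in dense blocks, runs of at least 10 private calls of a tumour at gaps of at most 2 Mb. All 4 low-titled tumours had such blocks, 18 in all with 2228 calls, and 11 of the 40 high-titled tumours did, 21 in all with 403 calls. Blocks of at least 50 calls numbered 7 on the low-titled and 1 on the high-titled side. Calls in blocks were 203 in 1199, 1313 in 1200, 134 in 1201 and 578 in 1293, beside 0 to 159 in the high-titled tumours (557 ± 540, n = 4, against 10.1 ± 27.3, n = 40; exact permutation p = 1.47e-05, adjusted p = 0.00014). Without tumour 1200 the difference fell from 546.9 to 294.9 calls. The lowest of the 4 lies inside the high-titled range and the other three above it.

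In tumour 1200, the largest blocks were chr2:116880713-122792231 (546 private calls of its 553 calls there) and chr2:18037681-26960399 (476 of 476). Next came chr11:93600508-100898381 (137 of 967), in a stretch that 1200 shared with other tumours, and chr4:109297280-114194962 (71 of 71). In 1293, chr1:62783197-75636813 held 578 of its 580 calls. Median shares in these blocks of 1200 and 1293 were 46.4 to 47.6%. In 1199 the largest block, chr11:93304584-100493330, held 131 private calls among 891 calls, so it lay in a stretch that 1199 shared with other tumours. In 1201, chr1:188318782-188997116 held 31 of 31 calls at a median share of 50%, and chr11:4939585-9466649 held 34 of 41 at 30.95%, near that tumour's share on the rest of chromosome 11.

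**Figure D3:**
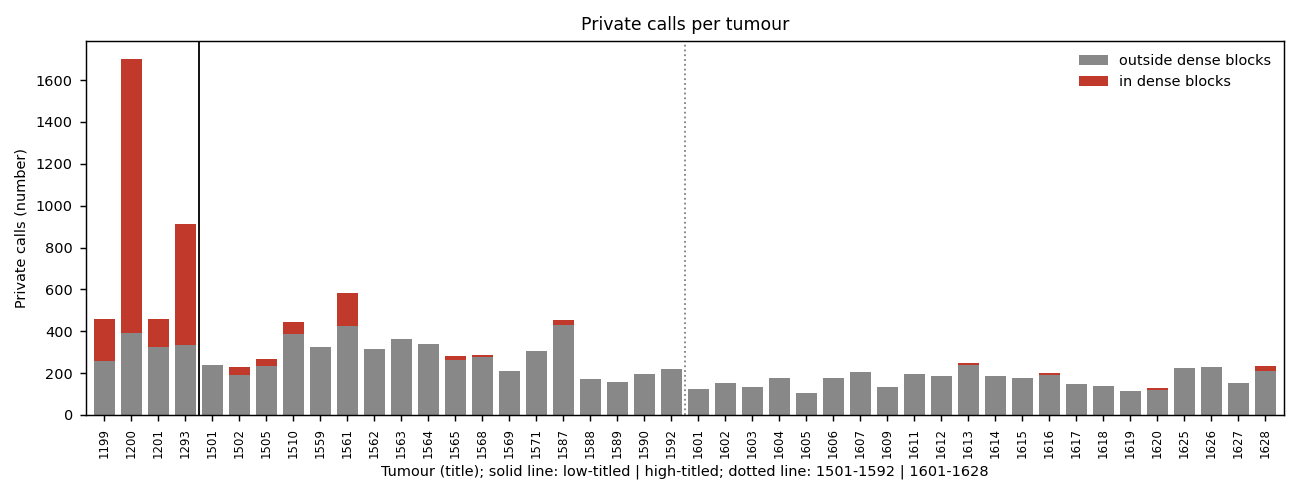
Private calls per tumour (bars, number) for 44 tumours by title, split into calls outside dense blocks (grey) and in dense blocks (red). Tumours 1200 and 1293 stand above the rest through the red part, with 1313 and 578 calls, and the grey parts of the 4 low-titled tumours (257 to 390) lie within the range of the high-titled ones (106 to 431).

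Outside the blocks the numbers were 257 in 1199, 390 in 1200, 323 in 1201 and 334 in 1293, with means of 326 ± 54.6 (n = 4) and 219 ± 84.4 (n = 40). This difference of 106.8 missed the threshold after adjustment (exact permutation p = 0.0161, adjusted p = 0.051). Against tumours titled 1501 to 1592 (280 ± 85.2, n = 18) the unadjusted exact permutation test gave p = 0.326, and against those titled 1601 to 1628 (169 ± 39.3, n = 22) it gave 6.69e-05, the smallest that split can give. Private protein-altering calls were 41, 161, 58 and 80 in 1199, 1200, 1201 and 1293, beside 7 to 65 (85 ± 53.1, n = 4, against 27.1 ± 13.3, n = 40; exact permutation adjusted p = 0.000945), and the difference of 57.88 fell to 32.54 without tumour 1200. Outside blocks they were 28, 63, 44 and 43 (adjusted exact permutation p = 0.051).

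The median read share of private single-base calls reached 36.4% in 1199, 45.45% in 1200, 23.1% in 1201 and 44.4% in 1293, and 10.5 to 23.4% in the high-titled tumours. The means were 37.3 ± 10.3% (n = 4) and 15.4 ± 3.23% (n = 40), with an exact permutation adjusted p of 0.00014. Outside dense blocks the medians fell to 18.2, 18.2, 15.6 and 16.7%, inside the high-titled range of 10.5 to 21.05% (17.15 ± 1.27%, n = 4, against 14.9 ± 2.84%, n = 40; exact permutation adjusted p = 0.255).

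**Figure D4:**
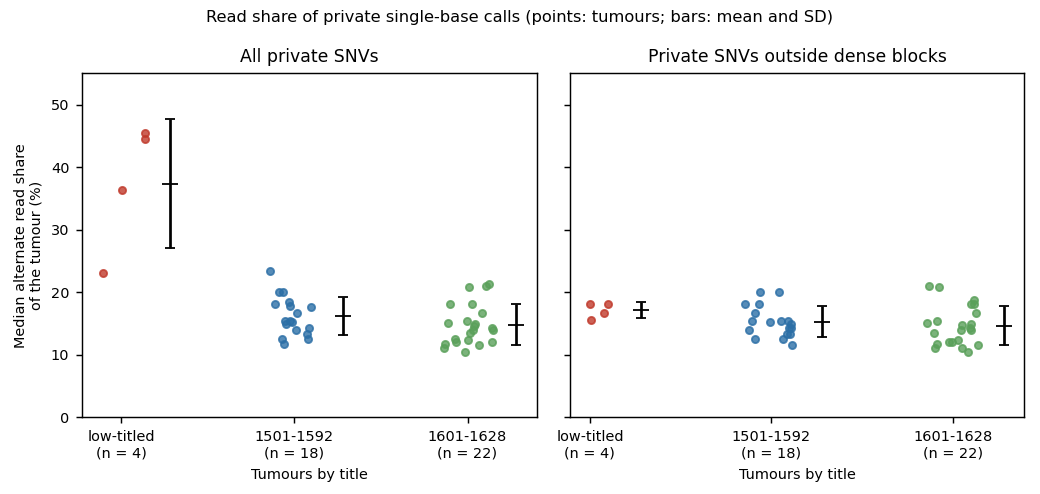
Median alternate read share (percent, vertical axis) of each tumour's private single-base calls, for all of them (left) and for those outside dense blocks (right), in the 4 low-titled tumours, the 18 titled 1501 to 1592 and the 22 titled 1601 to 1628. Points are tumours and bars the mean and SD, and the low-titled tumours, at 23.1 to 45.45% on the left, fall to 15.6 to 18.2% on the right, among the others.

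In all, 4 of the 19 per-tumour values passed the adjusted threshold and 7 had an unadjusted p under 0.05. Among the rest, total calls were 5039 in 1199, 5929 in 1200, 3512 in 1201 and 2508 in 1293 (4247 ± 1530, n = 4, against 3377 ± 1286, n = 40; adjusted exact permutation p = 0.293). Tumour 1200 had more calls than any of the 44. Missense calls per synonymous call numbered 0.53 in 1199, 0.535 in 1200, 0.749 in 1201 and 0.617 in 1293, and that of 1201 lay above the high-titled maximum of 0.665. The group difference did not pass (adjusted exact permutation p = 0.255). C-to-A changes made up 16.3 to 20.6% of private single-base calls outside blocks in the 4 tumours and 5.2 to 39.5% in the high-titled ones.

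Private protein-altering calls in genes of the lists were few in each tumour. Tumour 1200 had the most. Mga, a partner of Max that represses Myc target genes, had 3 private missense variants in 1200 (p.Gly334Glu at 42%, p.Met2082Ile at 46% and p.Ser3037Leu at 40.5%), all inside its chromosome 2 block of 546 private calls. Outside blocks, 1200 had Hist1h1e p.Lys169Glu (53.3%), in a linker histone gene, Myc p.Cys187Trp (24.2%) and Pim1 p.His68Tyr (26.9%), in a serine/threonine kinase gene.

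Tumour 1201 had Trp53 p.Tyr123Ser at 45.3% and Msh6 p.Phe1287Leu at 40.6%, in the genes of the tumour suppressor p53 and of a mismatch repair protein. Trp53 lies on chromosome 11, where single-base calls of 1201 had varied shares. In it, 9 calls between 60 and 80 Mb had a median of 33.3%. Over the whole chromosome, single protein-altering calls of 1201, chosen after their values were seen, reached higher shares, Dnah2 66.1% and Fat2 73%. Most shares were lower, as 313 of the 344 chromosome 11 variants compared above lay under 40% in 1201. Tumour 1293 had Myc p.Asn108Lys at 33% and, at 5.45%, Rela p.Arg171Thr, in the NF-kB subunit p65. Tumour 1199 had Smarca4 p.Arg1192His at 16.2% and Kmt2a p.Ala414Thr at 3.88%, both genes of chromatin regulators. A further Myc missense variant, p.Leu115Pro, occurred in 1199 at 21.3% and in 1 high-titled tumour. Reads of a Myc transgene and of the mouse's own gene cannot be told apart in these calls.

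Private truncating calls of at least 20% share occurred in 8 genes on chromosomes other than 18. In 1199 they were a splice acceptor deletion of Fyb (23.9%), an adaptor of T cell signalling, and a Skap1 insertion (54.3%) that the deposited annotation calls a frameshift although its transcript position lies past the stop codon, with an in-frame insertion of the same share 1 base away. In 1200 they were Slc6a19 p.Trp563Ter (45.45%), in an amino acid transporter, and paired frameshifts of Lhx3 and Jarid2. The Lhx3 pair (50.85% each) adds 2 bases and removes 2, for a net change of 0, and the Jarid2 pair (57.1 and 53.3%) removes 21 bases in all. In 1293 they were Bsn p.Gln238Ter (47.1%), Rab44 p.Arg227Ter (40%) and a splice donor change of Lmtk3 (69.6%). Tumour 1201 had 2 private stop variants, both under 20%: Pigt (15.8%) and Smarcad1 (4.94%).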

How the data were processed

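Exomes of mesenteric lymph node tumours were captured with a 50 Mb Agilent SureSelect mouse exon design, per the labels' protocols, and GATK and mm10 are named in the submitters' processing notes. For aligner, filters and annotator the entry is: not given in the sources used here. Within a single table, the authors deposited 25823 rows. Each tumour cell was taken, from its values, as the percent of alternate reads, and the Count column is the deposited count of carriers. Depth is unknown. Rows with several alternate alleles (199) were left out, leaving 25624, and 1 blank cell was read as no call. A listed read share counted as a call. Carriers were compared per variant and per gene with two-sided Fisher's exact tests, and 19 per-tumour values with exact permutation tests over 135751 splits, each family with Benjamini-Hochberg adjustment, in Python 3.11.15 with numpy 2.4.6, pandas 2.3.3 and scipy 1.17.1. The scripts were tested on simulated data, in which the carriers of each variant were placed independently, so linkage between variants was not covered. Genes were named by rule: truncating variants in an interval, then up to 15 genes a side ranked by carriers, variants and symbol, then members of 10 gene lists, then private truncating variants of at least 20%. Promoter letters come from RefSeq tables of GRCm38.p6. The members and lists were chosen with earlier results of these data known. Comparisons of neighbouring variants, of chromosome 11 read shares and of all calls inside intervals were added after seeing the data. Each tumour is from its own mouse, and relatedness between mice is not given. Results on some genes are not reported here.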

Additional observations from a re-analysis of the deposited data

How the results depend on the processing

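The variant counts of 574 (low-titled) and 592 (high-titled) became 67 low-titled over variants with at least 4 carriers, and 23 and 28 with 1 variant per carrier pattern and chromosome. At read shares of at least 80%, and with Bonferroni adjustment, both were 0 by Fisher's exact test, with 37 and 2942 variants at an unadjusted p under 0.05. Leaving out 1 low-titled tumour gave 0 to 1425 and 0 to 713. The gene counts of 38 and 31 became 98 low-titled at shares of at least 20%, 13 low-titled over genes altered in at least 4 tumours, 0 and 0 against titles 1501 to 1592, and 0 and 0 without missense variants (15 at an unadjusted Fisher's exact p under 0.05). Leaving out 1 low-titled tumour gave 0 to 87 and 0 to 35. The 20 high-side intervals became 12 at gaps of 5 Mb, 11 with at least 20 variants and 5 with carriers in at least 50% of the side, and low-side intervals were 2 to 6 with 1 low-titled tumour left out.

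The difference in private calls passed with any 1 low-titled tumour left out (380.3 without 1200 to 795.7), as did those in blocks (294.9 to 687.9) and private protein-altering calls (32.54 to 72.54), while outside dense blocks the difference of 106.8 did not pass. At shares of at least 20% it passed (82.28), as did private protein-altering calls outside blocks (11.5, and 18.05 over single-base calls alone). Leaving out 1 low-titled tumour gave 85.42 to 129.8 and 11.58 to 23.25, and both passed without 1199. Against titles 1601 to 1628, differences passed for calls (1694), single-base calls (1467), indel calls (227), protein-altering calls (158.1), shared calls (983), private calls outside blocks (156.7), their protein-altering part (24.09), the percent of private single-base calls outside blocks at 20% or more (12.48), C-to-A (5.017) and indels (-8.101).

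In 15 cases a difference that had not passed changed sign. Against titles 1501 to 1592 these were calls (-138.1), single-base calls (-138.6), shared calls (-721.8), the percent of calls at 80% or more (0.3884), C-to-A (-5.958) and indels (2.555). C-to-A was -1.058 at shares of at least 20%, and with 1 low-titled tumour left out it ran from -0.9159 (without 1293) to 0.5145. The percent of calls at 80% or more was 0.01581 over single-base calls, and -0.4033 to 0.1934 with 1 tumour left out, above 0 without 1199 (0.0798) and without 1200 (0.1934). Shared calls ran from -189.1 (without 1199) to 805.2, and were -71.46 without 1200. The median share of shared single-base calls ran from -1.592 to 0.3277, and missense per synonymous from -0.007711 to 0.06542, with the sign turned without 1201 in both. In the other 149 comparisons direction and side of the threshold were kept, or the count stayed within 1.5 times. No cause was tested. No paired analysis was possible because the replicate numbers follow accession order and tie no low-titled tumour to a high-titled one.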

Other observations

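Apart from chromosome 11 in tumour 1201, median read shares of the shared single-base variants departed from those of the same variants in other carriers on a few chromosomes. Chromosome 1 of tumour 1200 had a median of 61.8% (47 variants), beside 49.2% in the other carriers. In tumour 1293 chromosome 12 had 57.2% over 200 variants, beside 49.1%, while chromosome 12 in 1199, also over 200 variants, had 48.1%. On the distal end of chromosome 11, beyond 91 Mb, 1199 and 1200 had 863 and 877 single-base calls and 1201 had 3.

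Some widely shared variants did not separate the low-titled tumours from the rest. Of 80 chromosome 4 variants called in at least 20 high-titled tumours, the 4 low-titled tumours carried 66 or 67, and the high-titled ones 60 to 78. Of 121 such variants on chromosome 3, 1199 and 1201 carried 97 each, 1200 carried 3 and 1293 carried 6. Of 259 on chromosome 12, 1201 carried 31 and the other three 220 to 233. Tumours 1199, 1200, 1201 and 1293 thus divided differently on chromosomes 1, 3 and 12. Each of these sets was filtered on high-titled carriers, which by itself raises the high-titled counts.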
